A study of Mus musculus with 30 samples.

Results

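Cytosolic heat shock chaperones, the proteins that hold, fold and release other proteins in the cytoplasm, were followed as 10 genes, named as a group: Hspa1a, Hspa1b, Hspa8, Hsph1, Bag3, Dnajb1, Hsp90aa1, Hsp90ab1, Hspb1 and Cryab. Each gene was read from the transcript cluster, the array's unit of measurement, that carried its symbol alone and had the highest mean over 30 arrays. Of the 10, 8 had such a cluster among 30142 genes of the series, and all 8 passed the filter on low signals that left 18087 genes for testing. Hspa1b was listed only on a cluster shared with its neighbour Hspa1a, and Hsp90ab1 was not analysed here.

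The arrays each held 1 mouse blastocyst of the cross B6C3F1 x CD1, taken at 4 days post coitum after 96 h of culture. The 10 GM501 twins and 10 SAGE twins were monozygotic pairs: 10 embryos were bisected at the 2-cell stage, and the sister blastomeres grew singly, 1 in GM501 and 1 in SAGE 1-Step, both media for assisted reproduction. The 10 controls were undivided embryos grown singly in KSOM(aa), the standard medium for mouse embryos. All zygotes came from hormonally stimulated dams and were held in KSOM(aa) until the 2-cell stage, and the labels give about 40 to 50 cells for a twin and about 80 for a control. Medium, bisection and cell number therefore cannot be told apart where twins are set against controls, and in whole blastocysts fewer cells of a type cannot be told apart from less RNA per cell.

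HSP70 proteins bind exposed stretches of unfolded proteins in cycles driven by ATP. HSP40 proteins such as Dnajb1 deliver the client and start the cycle, and Hsph1 and Bag3 help to release the bound nucleotide. HSP90 takes over partly folded clients such as kinases and receptors, while the small heat shock proteins Hspb1 and Cryab hold unfolding proteins without using ATP. Some of these genes are switched on by heat or protein damage through the transcription factor HSF1, which binds repeats of a short sequence, the heat shock element. Others, Hspa8 above all, are made in nearly every cell at all times. In the mouse the inducible HSP70 genes are also among the earliest genes that the embryo itself transcribes.

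The heat shock element is shown here because it is the sequence by which this group is usually defined. RefSeq windows from 250 bases before to 50 after a gene's start (GRCm38.p6) were at hand for 6 of the 10 genes. The element GAANNTTC, searched on both strands and identical to its own reverse complement, was found in 5 of them. Over all 27025 genes with a window 9.04% held it, and so did 7.86% of all 32851 windows. Capitals mark the element, or in Hsph1 a longer form in which another TTC or GAA unit stands 2 bases away, in inverted order. That longer form contains the shorter one and stood in 0.603% of windows. The stretches of Hspb1 (chr5:135887766-135887865, plus strand) and Hspa1b (chr17:34959289-34959388, minus strand) lie before the start. Those of Hsph1 (chr5:149636287-149636316, minus strand) and Bag3 (chr7:128523603-128523632, plus strand) lie just after the start of their window. Hsph1 had windows for 2 starts, with the element at positions 41 and 20 after them. Neither start is the outer end of the gene, at 149636498.
Hspb1: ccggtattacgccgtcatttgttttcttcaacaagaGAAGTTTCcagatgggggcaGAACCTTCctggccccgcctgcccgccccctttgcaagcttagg
Hspa1b: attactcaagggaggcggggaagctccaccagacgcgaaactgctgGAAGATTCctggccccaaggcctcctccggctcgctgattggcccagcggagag
Hsph1: agtaaaatgctgcagaTTCTGGAAAGTTCt
Bag3: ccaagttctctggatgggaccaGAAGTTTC
Hspa1a carried the same letters as Hspa1b over all 100 bases of that stretch, and their full windows were equal at 296 of 300 positions. Hspb1 held the element at 2 places. No window of Dnajb1 held these letters. A match describes the sequence only.

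Signals are RMA values, log2 units that can be compared between arrays for 1 cluster but not between clusters. The arrays differed in overall level, with medians over all clusters from 4.81 to 5.28 in pairs 1 to 6 and from 4.59 to 4.69 in controls. In pairs 7 to 10 the medians ran from 4.57 to 4.67 apart from the SAGE twin of pair 8, at 5.12. No label names a batch, so results are also given for pairs 1 to 6 and pairs 7 to 10 apart, sets that were drawn from these medians. All 9 listed markers of the trophectoderm, the outer cells of a blastocyst, and all 8 of the inner cell mass passed the filter on low signals, among them Krt18, Cdx2 and Nanog. Fgf4 and Esrrb did so with means of 4.99 and 5.05, close to the lowest mean kept. Of 4 markers of the primitive endoderm with a cluster, Gata6, Gata4 and Sox7 passed, with means of 11.77, 5.88 and 5.32, and Sox17 did not, at 4.65.

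Cryab was higher and Hsph1 lower in twins of both media than in controls, and the other 6 genes did not pass the test in either comparison. This holds for the cluster used for each gene. Some clusters that list Hspa8, Hsp90aa1 or Hspa1a together with another symbol did pass, as given below under each gene. Between GM501 and SAGE co-twins none of the 8 genes passed. With GM501 twins, 2 of 8 genes were called against controls beside 13.8% of all genes tested, and with SAGE twins 2 of 8 beside 16.1%. In direction, 6.81% of all genes were higher and 6.97% lower in GM501 twins, and 7.49% higher and 8.64% lower in SAGE twins. Both comparisons share the 10 control arrays, and the twins of both media come from the same embryos, so their results are not independent. Each p-value weighs a difference against the variation among the blastocysts of only the groups compared. In it, limma draws each gene's variance toward that of all genes tested. Calls are at an adjusted p under 0.05 by limma with Benjamini-Hochberg adjustment over 18087 genes.

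**Figure D1:**
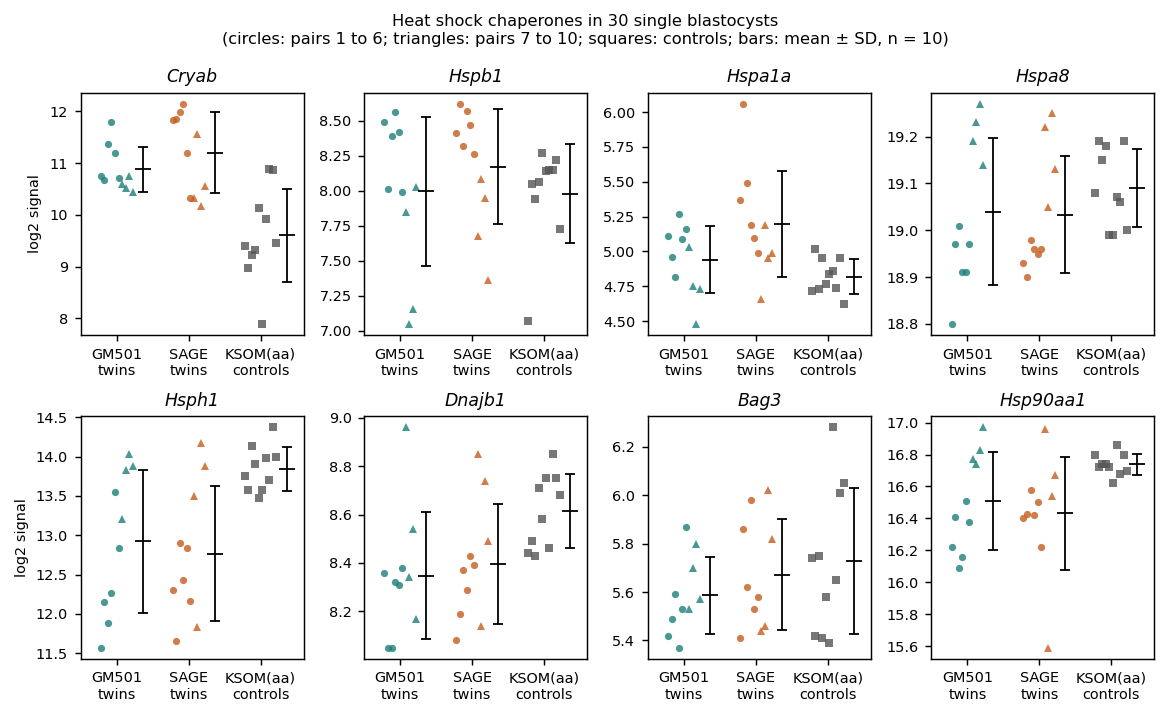
Log2 signal of the 8 measured heat shock chaperones (vertical axes, each with its own range) in the GM501 twins, SAGE twins and KSOM(aa) controls; every symbol is 1 blastocyst, and bars give the mean ± SD of 10. All twins lie above the control median of 9.43 for Cryab, while Hsp90aa1 lies below every control in all 12 circles, pairs 1 to 6.

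Cryab (gene ID 12955, chr9:50745951-50756636, GRCm38.p6) encodes alpha B crystallin, the small heat shock protein of lens and muscle. Its signal in GM501 twins was 10.45 at the lowest, 10.73 at the median and 11.79 at the highest. In SAGE twins the same values were 10.17, 11.39 and 12.15, and in controls 7.89, 9.43 and 10.89. All 10 twins of each medium lay above the control median, 3 GM501 and 6 SAGE twins lay above the highest control, and the ranges overlapped. Controls 8 and 9, at 10.89 and 10.86, reached the level of the twins. The mean difference from controls was 1.27 ± 0.30 in GM501 twins (SE, n = 10 each), a 2.42-fold rise (limma adjusted p = 0.0147). In SAGE twins it was 1.59 ± 0.35, or 3.01-fold (limma adjusted p = 0.0111). Cryab was called whichever single array was left out. Within pairs 7 to 10 the differences were 0.97 ± 0.42 and 1.05 ± 0.45, which did not pass (limma adjusted p = 0.298 and 0.248). All 8 of those twins still lay above the control median. Within pairs 1 to 6 they were 1.48 ± 0.37 and 1.95 ± 0.39 (limma adjusted p = 0.00266 and 0.000582).

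Hspb1 (gene ID 15507, chr5:135887919-135889563), the other small heat shock protein among the 10 and a partner of actin filaments, was not called in either comparison. Its signal ran from 7.05 over a median of 8.02 to 8.56 in GM501 twins, from 7.36 over 8.29 to 8.62 in SAGE twins and from 7.07 over 8.10 to 8.27 in controls. The groups overlapped widely, with 4 of 10 GM501 and 6 of 10 SAGE twins above the control median. The differences from controls were 0.02 ± 0.19 and 0.19 ± 0.17 (limma adjusted p = 0.954 and 0.387). With each array centred on its median, the value for GM501 twins became -0.17. The array sets diverged: in pairs 1 to 6 the differences were 0.33 ± 0.16 and 0.46 ± 0.15, the second of which passed (limma adjusted p = 0.0847 and 0.0143). In pairs 7 to 10 they were -0.46 ± 0.22 and -0.21 ± 0.20, and all 8 twins lay under the control median. The difference between the sets was not tested.

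Hspa1a (gene ID 193740, chr17:34969359-34972156) is an inducible HSP70. Its cluster gave a mean of 4.99, near the lowest mean that passed the filter, 4.80. Signals ran from 4.48 over 5.00 to 5.27 in GM501 twins, from 4.66 over 5.15 to 6.06 in SAGE twins and from 4.62 over 4.81 to 5.02 in controls. The SAGE twin of pair 2, at 6.06, stood above all other blastocysts, and 5 GM501 and 6 SAGE twins lay above the highest control. The differences of 0.12 ± 0.10 and 0.38 ± 0.13 did not pass (limma adjusted p = 0.36 and 0.0516). Centring the arrays turned the first to -0.065 and lowered the second to 0.19 (limma adjusted p = 0.184). In pairs 1 to 6 both passed, at 0.25 ± 0.09 and 0.55 ± 0.13 (limma adjusted p = 0.0196 and 0.00208), beside -0.072 and 0.13 in pairs 7 to 10, which did not. Array medians over all clusters averaged 5.04 in GM501 and 4.99 in SAGE twins of pairs 1 to 6, beside 4.64 in controls. Centred differences were not computed for that set.

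Hspa1b (gene ID 15511, chr17:34956429-34959238) lies beside Hspa1a and encodes a nearly identical protein, and its probes cannot be separated from those of Hspa1a on the cluster they share. That shared cluster ran from 5.06 over 5.52 to 6.58 in GM501 twins, from 4.87 over 5.69 to 6.39 in SAGE twins and from 4.93 over 5.28 to 5.39 in controls. Of the SAGE twins 8 lay above the highest control and 1, of pair 9, below the lowest. Fitted together with the other clusters of several symbols, it differed from controls by 0.40 ± 0.17 in GM501 twins and 0.46 ± 0.15 in SAGE twins. The second value passed (limma adjusted p = 0.101 and 0.04), beside 13.4% and 16.1% of the 19451 genes and clusters of that fit called in these comparisons. Without pair 8 the SAGE value was 0.42 ± 0.15 and its call was lost (limma adjusted p = 0.0558), beside 24.7% of that fit called for GM501 and 15.8% for SAGE. In pairs 1 to 6 both differences passed, at 0.72 ± 0.15 and 0.64 ± 0.12 (limma adjusted p = 0.00074 and 0.000284), beside 59.7% and 59.2%. Neither did in pairs 7 to 10, where the GM501 value changed sign, at -0.075 and 0.18 beside 1.31% and 0.833%.

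Hspa8 (gene ID 15481, chr9:40801276-40805202), the constitutive HSP70, gave one of the brightest signals on the array, the third highest of 65956 clusters by mean. It ran from 18.80 over 18.99 to 19.27 in GM501 twins, from 18.90 over 18.97 to 19.25 in SAGE twins and from 18.99 over 19.08 to 19.19 in controls. The highest value anywhere in the table was 19.3. Whether signals this bright still follow the amount of RNA was not tested. Groups overlapped, with differences of -0.05 ± 0.08 and -0.06 ± 0.07 (limma adjusted p = 0.634 and 0.561). Pairs 1 to 6 lay at -0.16 ± 0.07 and -0.14 ± 0.06 (limma adjusted p = 0.0465 and 0.0611) and pairs 7 to 10 at 0.12 and 0.072.

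The Hspa8 clusters need a caution about identity. The gene is on chromosome 9, but the 4 clusters that carry its symbol alone have identifiers of chromosomes 14 (the one used here), 6 and 1, and signals with means from 18.68 to 19.05. Over all genes the identifier named the gene's own chromosome in 99.4% of 29834 cases. The chromosome 9 cluster is listed with Hspa8 and small nucleolar RNA genes of the Snord14 family. It ran from 14.11 over 14.62 to 15.65 in GM501 twins, from 13.70 over 14.81 to 15.62 in SAGE twins and from 15.07 over 15.43 to 15.66 in controls. In pairs 1 to 6 all 12 twins lay below the lowest control, and in pairs 7 to 10 only 1 of 8 did. This cluster was lower in twins by 0.53 ± 0.17 and 0.59 ± 0.18, and both differences passed (limma adjusted p = 0.0449 and 0.0336). The differences were 0.024 and -0.12 in pairs 7 to 10. Another cluster, listed with Hspa8 and a predicted gene, had a mean of 17.76 in controls, beside 17.17 with GM501 and 17.13 with SAGE. There too all 12 twins of pairs 1 to 6 lay below the lowest control, and in pairs 7 to 10 only 1 of 8 did. Its differences of -0.60 ± 0.25 and -0.64 ± 0.24 did not pass over all pairs (limma adjusted p = 0.0959 and 0.0671) and were 0.29 and 0.002 in pairs 7 to 10. Of the 4 bright clusters the 2 with the highest means were tested, and neither was called, unlike the cluster of chromosome 9.

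Hsph1 (gene ID 15505, chr5:149616843-149636498) encodes HSP110, which releases nucleotide from HSP70 and helps it to dissolve aggregates. Its signal ran from 11.57 over 13.03 to 14.03 in GM501 twins and from 11.65 over 12.64 to 14.17 in SAGE twins. In controls it ran from 13.47 over 13.83 to 14.37. Below the lowest control lay 6 GM501 and 7 SAGE twins, and no twin lay above the highest, while the ranges overlapped. Hsph1 fell by 0.92 ± 0.28 in GM501 twins, so that controls were 1.90-fold higher (SE, n = 10 each; limma adjusted p = 0.0381). In SAGE twins it fell by 1.08 ± 0.27, or 2.11-fold (limma adjusted p = 0.0171).

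In pairs 1 to 6, all 6 SAGE and 5 of 6 GM501 twins were below every control in Hsph1. There the differences were -1.47 ± 0.24 and -1.46 ± 0.18 (limma adjusted p = 7.87e-05 and 5.76e-06). In pairs 7 to 10 they were -0.11 ± 0.17 and -0.50 ± 0.31 and did not pass (limma adjusted p = 0.83 and 0.467); the difference between the sets was not tested. The SAGE value there rests on pair 8, whose SAGE twin had 11.83 beside 13.83 in its GM501 sister. Without pair 8 the set gave -0.14 and 0.006. The call in GM501 twins over all pairs was lost in 12 of the 20 fits that left out 1 array, those without GM501 twin 1, 2, 3, 4 or 6 or control 1, 2, 3, 4, 7, 9 or 10, where the adjusted p rose to at most 0.0752. In SAGE twins it was kept in all 20.

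Bag3 (gene ID 29810, chr7:128523583-128546981), the co-chaperone that links HSP70 with small heat shock proteins and with autophagy, differed by less than the spread within groups. It ran from 5.37 over 5.55 to 5.87 in GM501 twins, from 5.41 over 5.6 to 6.02 in SAGE twins and from 5.39 over 5.70 to 6.28 in controls. The 3 highest values were those of 2 controls and 1 SAGE twin. Differences were -0.14 ± 0.11 and -0.06 ± 0.13 (limma adjusted p = 0.362 and 0.749), and neither array set gave a call.

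Dnajb1 (gene ID 81489, chr8:83608175-83612653) is the HSP40 partner of inducible HSP70. It ran from 8.05 over 8.33 to 8.96 in GM501 twins, from 8.08 over 8.38 to 8.85 in SAGE twins and from 8.43 over 8.63 to 8.85 in controls. Below the lowest control lay 8 GM501 and 6 SAGE twins, yet the highest signal of all, 8.96, was also that of a GM501 twin, and the groups overlapped. The differences of -0.27 ± 0.11 and -0.22 ± 0.10 did not pass (limma adjusted p = 0.0819 and 0.125). With centred arrays the GM501 value was -0.45 and passed (limma adjusted p = 0.0347). Pairs 1 to 6 gave -0.37 ± 0.09 and -0.32 ± 0.09, which passed (limma adjusted p = 0.00254 and 0.00524), and pairs 7 to 10 gave -0.11 and -0.059, which did not.

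Hsp90aa1 (gene ID 15519, chr12:110691036-110696395) encodes the stress-inducible HSP90. It ran from 16.09 over 16.46 to 16.97 in GM501 twins, from 15.59 over 16.47 to 16.96 in SAGE twins and from 16.62 over 16.73 to 16.86 in controls. The controls spanned a narrow range, and 6 GM501 and 8 SAGE twins lay below all of them. The differences were -0.23 ± 0.11 and -0.31 ± 0.12 (limma adjusted p = 0.124 and 0.0744). The mean of each co-twin pair, set against controls, gave -0.27 ± 0.09, which passed (limma adjusted p = 0.0362). In that comparison Cryab, at 1.43, and Hsph1, at -1.001, passed too, 3 of 8 genes beside 25.6% of all genes. The Hsp90aa1 call was lost in 11 of the 20 fits that left out a pair or control, those without pair 1, 2, 3, 4, 6 or 8 or control 1, 2, 3, 7 or 9, where the adjusted p rose to at most 0.0696. All 12 twins of pairs 1 to 6 lay below the lowest control, with differences of -0.44 ± 0.08 and -0.31 ± 0.07 (limma adjusted p = 0.000154 and 0.00119). In pairs 7 to 10 the values were 0.089 and -0.30, and the second rests on the SAGE twin of pair 8, the lowest blastocyst, at 15.59. Of the 2 clusters listed with Hsp90aa1 and a predicted gene, 1 fell in GM501 twins, by 0.42 ± 0.13 (limma adjusted p = 0.0453), and the other differed by -0.32 ± 0.11 (limma adjusted p = 0.0549). In SAGE twins they differed by -0.55 and -0.48 and did not pass (limma adjusted p = 0.0678 and 0.103). The SAGE twin of pair 8, at 15.65 and 15.57, lay apart from the other 9, which ran from 17.34 to 18.01 and from 17.54 to 17.90. Without pair 8 the differences were smaller, at -0.35 ± 0.09 and -0.26 ± 0.07, and passed (limma adjusted p = 0.0213 and 0.0217). The second cluster then passed in GM501 twins as well, at -0.34 ± 0.11 (limma adjusted p = 0.036). The GM501 differences were -0.03 and -0.026 in pairs 7 to 10 alone.

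**Figure D2:**
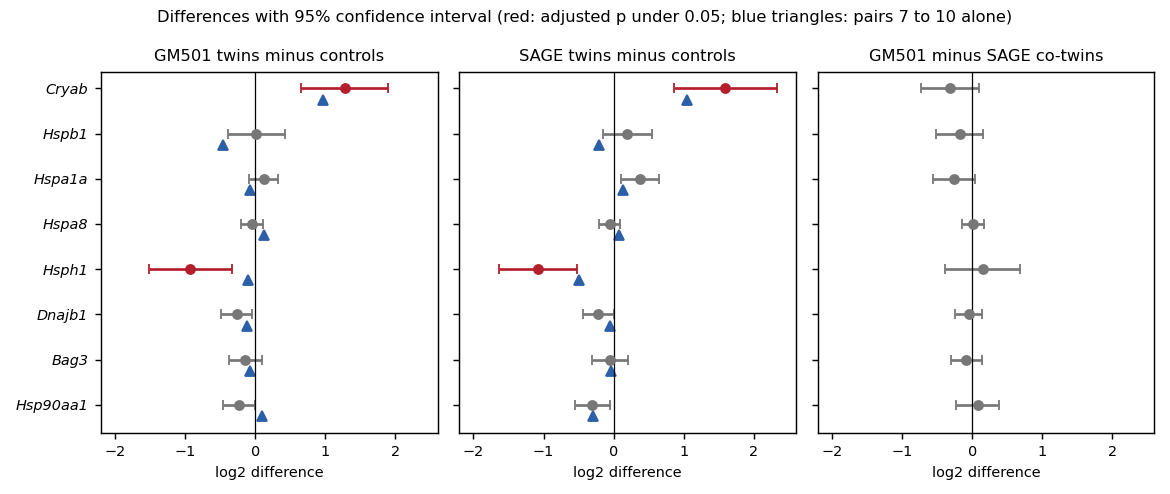
Log2 differences (horizontal axes) of the 8 chaperones between GM501 twins and controls, SAGE twins and controls, and GM501 and SAGE co-twins, with limma's 95% confidence intervals over 10 blastocysts or pairs; red points passed the test. Blue triangles give pairs 7 to 10 alone, where Cryab is at 0.97 and 1.05 and Hsph1 at -0.11 and -0.50.

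Counted by array set, 6 of 8 genes passed against controls in pairs 1 to 6 for each medium, beside 59.4% and 58.8% of all genes. In GM501 twins these were Cryab and Hspa1a, which rose, and Hsph1, Hspa8, Hsp90aa1 and Dnajb1, which fell. In SAGE twins Cryab, Hspa1a and Hspb1 rose, and Hsph1, Hsp90aa1 and Dnajb1 fell. The mean of Hspa1a lay near the lowest that passed the filter, and no fit of an array set alone used centred arrays. In pairs 7 to 10, 0 of 8 passed for either medium by limma, beside 1.32% and 0.813% of all genes, with 1 gene in each case at an unadjusted p under 0.05. By direction, the 2 chaperones that rose and 4 that fell in GM501 twins of pairs 1 to 6 stood beside 38.3% of all genes higher and 21.1% lower. The 3 that rose and 3 that fell in SAGE twins stood beside 38.9% higher and 19.9% lower. Over all arrays no chaperone's range in twins was apart from that in controls, beside 0.188% of genes for GM501 and 0.166% for SAGE. In pairs 1 to 6 the ranges did not overlap for Hsp90aa1 and Dnajb1 in GM501 twins and for Hsph1, Hspa8 and Hsp90aa1 in SAGE twins, beside 19.5% of genes for each medium. With arrays centred on their medians, 3 of 8 chaperones passed in each comparison, beside 12% and 15.4% of genes, since Dnajb1 joined in GM501 twins and Hsp90aa1, at -0.50 (limma adjusted p = 0.0345), in SAGE twins. Centring used the median of each array over the 30142 genes, not over all clusters, and lowered all differences by 0.18 and 0.19. It turned the split of all called genes from 1232 higher and 1261 lower to 366 and 1807 in GM501 twins, and from 1355 and 1562 to 389 and 2394 in SAGE twins. Where pairs 1 to 6 are set against controls, array median, medium, bisection and any unlabelled batch cannot be told apart. What separates pairs 1 to 6 from pairs 7 to 10 was not tested.

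**Figure D3:**
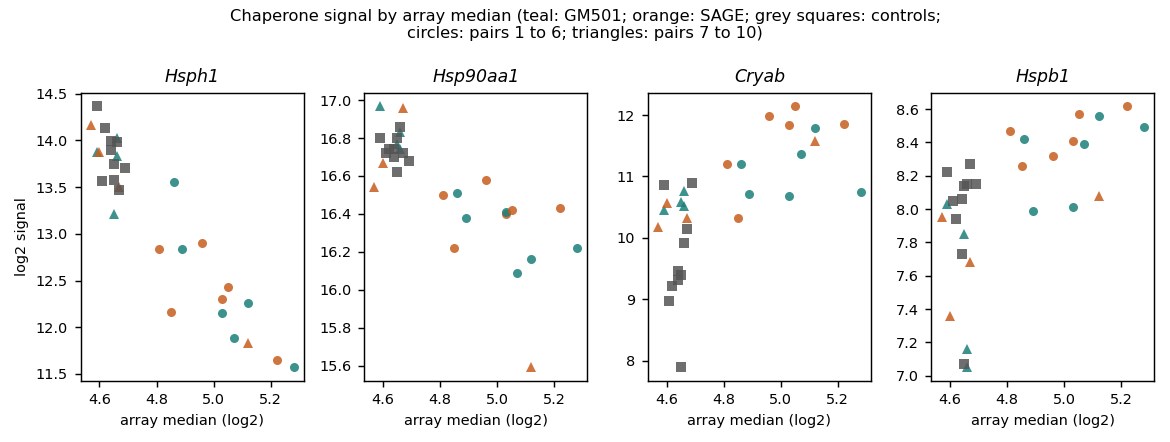
Log2 signal of Hsph1, Hsp90aa1, Cryab and Hspb1 (vertical axes) against the median of the same array (horizontal axes, log2), with 1 symbol per blastocyst. Arrays with medians of 4.81 or more are those of pairs 1 to 6 and the SAGE twin of pair 8, and their Hsp90aa1 signals all lie below the lowest control, 16.62; the controls lie together at 4.59 to 4.69.

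Between co-twins no chaperone passed the test for medium. limma called 0 of 18087 genes (0%), 695 had an unadjusted p under 0.05, and none of the 8 chaperones did. Their differences, GM501 minus SAGE, ran from -0.32 ± 0.19 for Cryab (95% interval -0.73 to 0.097) over -0.26 ± 0.14 for Hspa1a (-0.56 to 0.04) and -0.18 ± 0.15 for Hspb1 (-0.51 to 0.16) to 0.15 ± 0.25 for Hsph1 (-0.38 to 0.69). Hspa8 stood at 0.007 ± 0.07 (-0.15 to 0.16) on the bright cluster used here, and its chromosome 9 cluster at 0.063 ± 0.13 (-0.23 to 0.35). Hsp90aa1, Dnajb1 and Bag3 stood at 0.077, -0.049 and -0.085. Adjusted p was 1 for each by limma. Cryab was lower in GM501 in 6 pairs, higher in 3 and equal in 1. Hspa1a was lower in 7 of 10.

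Single pairs nevertheless held large differences. Co-twins of pair 8 differed by 2.00 in Hsph1, 1.15 in Hsp90aa1 and 0.18 in Hspa8, all higher in GM501, and by -1.03 in Hspb1. Pair 2 held the largest gap in Hspa1a, -1.10, and in Cryab, -1.18. Over 10 pairs the median absolute difference was 0.59 for Hsph1 and 0.49 for Cryab. Without pair 8 the mean differences of Hsph1, Hsp90aa1 and Hspa8 turned to -0.051, -0.042 and -0.012.

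**Figure D4:**
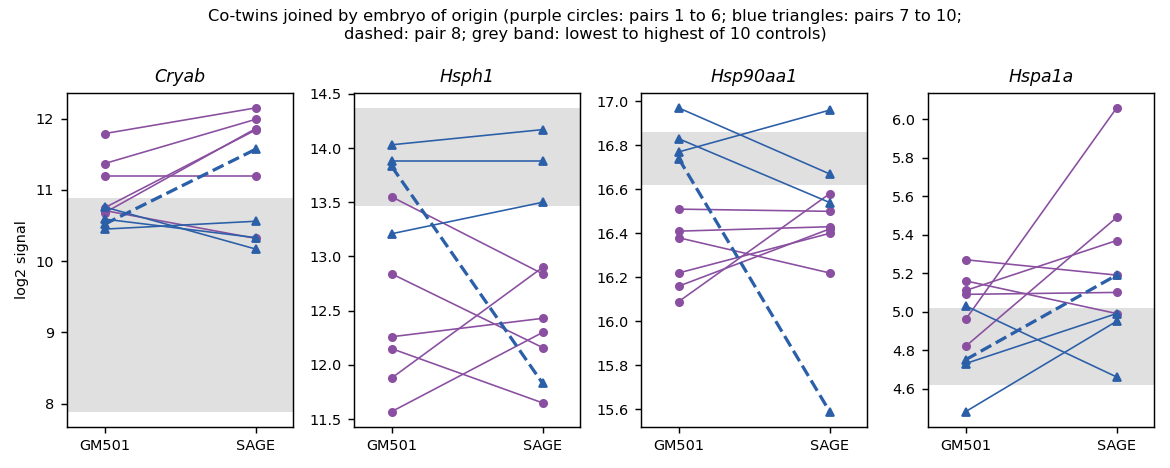
Log2 signal (vertical axes) of Cryab, Hsph1, Hsp90aa1 and Hspa1a in the GM501 and SAGE twin of each of 10 embryos, joined by lines, with the range of 10 controls in grey. Every panel holds both rising and falling lines, and pair 8 (dashed) falls by 2.00 in Hsph1 and 1.15 in Hsp90aa1 from GM501 to SAGE.

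The likeness of co-twins was described by the intraclass correlation. This value, which is 1 when co-twins are equal and 0 when they are no more alike than twins of other embryos, was 0.83 for Hspa8, 0.67 for Dnajb1, 0.52 for Hsph1, 0.47 for Cryab and 0.42 for Hspb1. It was 0.065 for Hspa1a, 0.068 for Hsp90aa1 and 0.0042 for Bag3. Without pair 8 it was 0.50 for Hsp90aa1. The values were not tested against each other. By limma's F test over embryos, 0 of 8 passed beside 26.4% of all genes. The smallest adjusted p was 0.055, for Hsph1, and 3 of the 8 had an unadjusted p under 0.05. The F test draws each gene's variance toward that of all genes, which the intraclass correlation does not, so their rankings can differ. Hspa8, with the highest intraclass correlation, had a limma adjusted p of 0.362. With limma's trend and robust options Hspa8 and Hsph1 passed (limma adjusted p = 0.0349 and 0.0453), and the share of all genes was not computed there. Co-twins also share their array set: within pairs 1 to 6, 0 passed beside 0.243% of genes, and the intraclass correlations of Hspa8 and Dnajb1 were 0.20 and 0.023. Without pair 8, Hsph1 passed with an intraclass correlation of 0.76 (limma adjusted p = 0.00807), 1 of 8 beside 35.1% of genes.

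Single twins were spread more widely than single controls in most genes, most chaperones among them. The SD of twins exceeded that of controls in 6 of 8 chaperones for each medium, beside 87.1% and 87.6% of all genes tested. Cryab and Bag3 were the exceptions in both, with Cryab at an SD of 0.43 and 0.78 in the twins, beside 0.90 among controls. By limma on distances to the group median, the spread of GM501 twins exceeded that of controls for Hsph1 (0.78 against 0.23, adjusted p = 0.0215) and Hsp90aa1 (0.26 against 0.05, adjusted p = 0.037). These 2 of 8 stood beside 9% of all genes. For SAGE twins 0 of 8 passed beside 5.93%, with 1 chaperone, Hsph1, at an unadjusted p under 0.05 (limma adjusted p = 0.0605). Without pair 8 both calls were lost, beside 0% of all genes called for either medium. The adjusted p of Hsph1 and Hsp90aa1 by limma was then 0.113 and 0.115 in GM501 twins, with unadjusted p of 0.000765 and 0.0076. Within pairs 1 to 6 the distance of Hsph1 in GM501 twins was 0.51, and 0 of 8 passed beside 0.194% of genes (limma adjusted p = 0.428 for Hsph1). In pairs 7 to 10 its distance was 0.22 in GM501 twins and 0.68 in SAGE twins, beside 0.23 in controls.

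Relations between chaperones were examined among 10 controls and among 10 differences between co-twins, 7 gene pairs in each, with permutation tests of 100000 resamples. None of the 14 passed adjustment. Closest came Hsp90aa1 and Hsph1 in the co-twin differences, with Pearson's r of 0.85 (permutation p = 0.00407, adjusted p = 0.057) and Spearman's rho of 0.76 (permutation p = 0.0149, adjusted p = 0.209). Without the 2 pairs farthest from the median of Hsp90aa1, r was 0.37, and over all 10 pairs with centred arrays it was 0.90. Leaving out the most extreme pairs narrows the range and can by itself lower r, so the first value cannot show what the relation rests on. Among controls the same genes had an r of 0.52 (permutation p = 0.126, adjusted p = 0.588) and a rho of 0.50 (permutation p = 0.142, adjusted p = 0.498).

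Other chaperones and co-chaperones were taken from lists of the families around these genes. Their counts stand beside 6.81% of all genes higher and 6.97% lower in GM501 twins, and 7.49% higher and 8.64% lower in SAGE twins. Of 5 small heat shock proteins tested outside the 10, 3 rose in GM501 twins and 1 in SAGE twins, and 0 fell, with medians of 0.42 and 0.33 beside 0.11 over all genes in each comparison. Hspb11, a part of the ciliary transport machinery despite its name, rose by 0.89 ± 0.28 and 0.90 ± 0.30 (limma adjusted p = 0.0413 and 0.0469). Hspb2, the neighbour of Cryab in the genome, rose by 0.86 ± 0.22 in GM501 twins (limma adjusted p = 0.0221), and the lens protein gene Cryaa by 0.42 ± 0.13 (limma adjusted p = 0.042). With centred arrays none of these was called, and the medians were 0.23 and 0.14. Hspa2, an HSP70 of germ cells, rose by 0.43 ± 0.12 and 0.47 ± 0.13 (limma adjusted p = 0.0304 and 0.0263), the only gene called of 5 other HSP70 and HSP110 genes. It was not called with centred arrays, at 0.24 and 0.28.

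Co-chaperones that passed were mostly lower. Of 7 HSP70 co-chaperones 2 fell in GM501 twins and 3 in SAGE twins, and 0 rose, with medians of -0.17 and -0.27. Hspbp1, a nucleotide exchange factor of HSP70, fell by 1.79 ± 0.40 and 1.89 ± 0.33 (limma adjusted p = 0.0119 and 0.0054). Bag6, which guards hydrophobic proteins, fell by 1.15 ± 0.30 and 1.05 ± 0.29 (limma adjusted p = 0.0227 and 0.0232). Stip1, the adaptor between HSP70 and HSP90, fell in SAGE twins by 0.85 ± 0.25 (limma adjusted p = 0.0312). Of 11 HSP40 genes 2 fell in each comparison, Dnajc5 of synaptic vesicles by 0.64 and 0.55 and the ribosome-bound Dnajc2 by 0.40 and 0.59, and 0 rose.

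Of 12 HSP90 co-chaperones 3 fell in each comparison, while 2 rose in GM501 twins and 0 in SAGE twins, with medians of -0.54 and -0.55. Ahsa1, which activates the ATPase of HSP90, fell by 1.34 ± 0.34 and 1.30 ± 0.36 (limma adjusted p = 0.0197 and 0.0241). Fkbp4, an immunophilin of steroid receptor complexes, fell by 0.86 ± 0.23 and 1.12 ± 0.24 (limma adjusted p = 0.0255 and 0.01). Unc45a, which helps to fold myosin, fell by 0.64 in GM501 twins, and Sgta by 1.57 in SAGE twins. Ppid, a cyclophilin of HSP90 complexes, and Ahsa2 rose by 0.54 and 0.62 in GM501 twins, the latter named after its values were seen; with centred arrays neither was called.

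**Figure D5:**
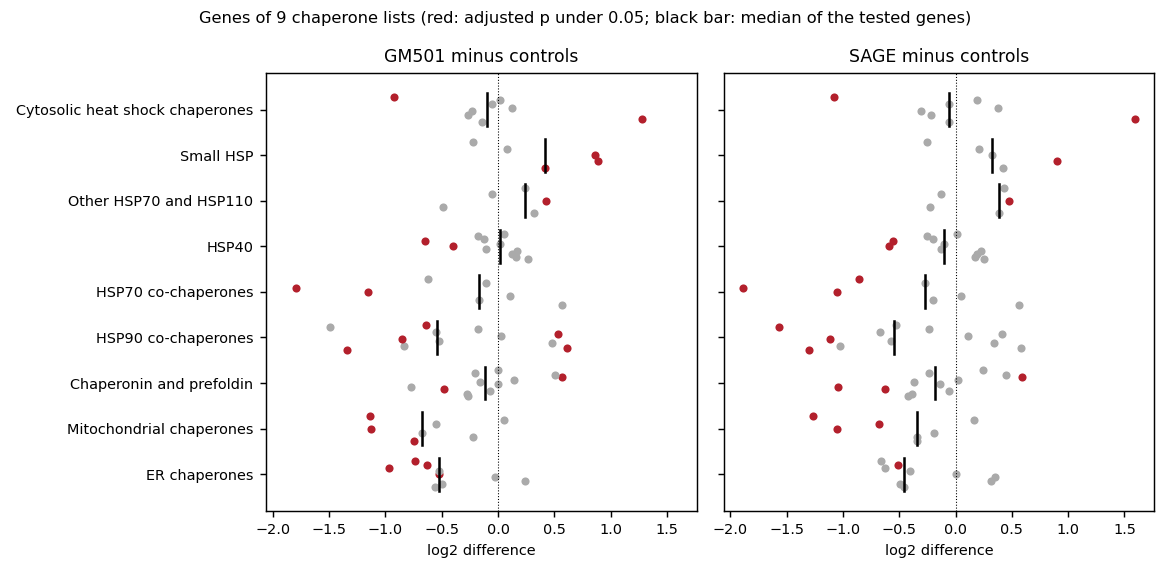
Log2 differences from controls (horizontal axes) of the tested genes of 9 chaperone lists for GM501 twins and SAGE twins; 1 point is 1 gene, red points passed the test and black bars are list medians. The small heat shock proteins have medians of 0.42 and 0.33, the HSP90 co-chaperones of -0.54 and -0.55, and the mitochondrial chaperones of -0.67 and -0.34.

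Of 7 mitochondrial chaperones 3 fell in each comparison and 0 rose: Hspa9, the mitochondrial HSP70, by 1.13 and 1.05, and Trap1, the mitochondrial HSP90, by 1.13 and 1.27. Dnaja3 fell by 0.74 in GM501 twins and Hspd1, the chaperonin of the matrix, by 0.68 in SAGE twins. Of 9 chaperones of the endoplasmic reticulum 4 fell in GM501 twins and 1 in SAGE twins. Hyou1 fell by 0.63 and 0.51, and Hspa5, Pdia6 and Dnajc3 by 0.97, 0.74 and 0.52 in GM501 twins. Of 12 genes of the cytosolic chaperonin and prefoldin 1 rose in each comparison, Pfdn4 by 0.57 and 0.59. Cct5 fell by 0.48 and 0.63, and Cct7 by 1.04 in SAGE twins. In pairs 7 to 10 no gene of these lists was called by limma. Their differences there were for example -0.47 and -1.52 for Hspbp1, -0.17 and -0.73 for Ahsa1, and -0.065 and -0.15 for Bag6. Of the values called over all pairs, those of Hspb11, at -0.029 and -0.11, of Trap1 in GM501 twins, at 0.24, and of Pfdn4 in SAGE twins, at -0.032, changed sign in that set. The median of the HSP90 co-chaperones there was 0.12 in GM501 twins and -0.10 in SAGE twins, and without pair 8 it was 0.16 in each.

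Of the factors above the heat shock genes, Hsf2, a transcription factor of embryos and germ cells, and Hsbp1, a small protein that binds HSF1, were tested. Hsf1 was not analysed here. Hsf2 ran from 7.02 over 9.24 to 10.00 in GM501 twins, from 7.09 over 9.29 to 10.03 in SAGE twins and from 8.99 over 9.49 to 10.06 in controls. Its differences of -0.50 ± 0.31 and -0.57 ± 0.31 did not pass (limma adjusted p = 0.234 and 0.169). In pairs 1 to 6 they were -0.92 and -0.90 and passed (limma adjusted p = 0.0255 and 0.0213). Hsbp1 ran from 14.04 over 15.57 to 16.00 in GM501 twins, from 14.01 over 15.50 to 15.90 in SAGE twins and from 13.97 over 14.49 to 14.80 in controls. It rose by 0.75 ± 0.25 and 0.73 ± 0.22 (limma adjusted p = 0.0493 and 0.0319). All 12 twins of pairs 1 to 6 lay above every control, and in pairs 7 to 10 only 1 of 8 twins did, with differences of -0.14 and 0.028. With centred arrays the GM501 call was lost (limma adjusted p = 0.0762).

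Markers of the cell types moved beside these values. Of 9 trophectoderm markers 8 fell in GM501 twins and 7 in SAGE twins, and the mean of the list per array ran from 10.50 to 11.24, from 9.99 to 11.57 and from 11.23 to 11.80, with GM501 twins, SAGE twins and controls in that order. Of 8 markers of the inner cell mass 1 rose and 1 fell in GM501 twins and 5 fell in SAGE twins. The mean per array ran from 7.31 to 9.36, from 7.16 to 8.49 and from 8.50 to 9.37. Of 3 tested markers of the primitive endoderm 1 fell in each comparison. Of 5 tested markers of cumulus, oviduct or blood cells 1 fell, Epcam, which the blastocyst itself expresses. These counts stand beside 6.97% of all genes lower in GM501 twins and 8.64% in SAGE twins, and 6.81% and 7.49% higher. In pairs 7 to 10, 1 of 9 trophectoderm markers fell in GM501 twins and 0 in SAGE twins. There 0 of 8 markers of the inner cell mass were called in either comparison. In that set 1.32% and 0.813% of all genes were called. The part of cell types in the chaperone results was not tested.

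Genes whose signal was most like that of a chaperone were sought over 30 arrays after centring each gene within its group. For Hsph1 the 5 highest were Heatr1, Anln, Vps35, Cct7 and Rfc1, with r from 0.90 to 0.92. For Hspa8 they were Sidt2, Arhgap1, Gprc5a, Azin1 and Tollip, with r of 0.90 each. For Cryab they were Cox6b2, Ccng1, Slc6a7, Pnliprp2 and Kng1, with r from 0.68 to 0.74. These are descriptions over arrays that share the split by array median. Among the 10 controls alone r was 0.71 for Heatr1 and 0.082 for Vps35 with Hsph1, and from 0.61 for Kng1 to 0.86 for Ccng1 with Cryab.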

How the data were processed

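Gene expression was measured on 30 Affymetrix arrays, 1 blastocyst each, in 3 groups of 10. The deposited values are log2 signals that the authors made with RMA in Affymetrix Expression Console on mm10, per the submitters' processing notes; versions and probe filters are not given in the sources used here. Amplified RNA of single embryos was hybridised, and no read depth applies, so precision depends on how many arrays a group has. Of 65956 clusters, 30604 carried 1 gene symbol in the platform's annotation, giving 30142 genes (highest mean where a gene had several). The 60% with the highest mean, 18087 genes, were tested in fits across all genes (lmFit with eBayes in limma 3.58.1, run under R 4.3.3), with Benjamini-Hochberg adjustment and a threshold of 0.05. The media were compared with the pair as a block, and twins with controls by group. Embryo of origin was tested by an F test over pairs, and spread by distances to the group median. The pair numbers link co-twins by the labels. Correlations of their deviations ran from 0.16 to 0.70, and 7 of 10 GM501 twins were most like their own co-twin. The fits were tested on simulated data with independent noise at the SD of controls. That simulation held no split by array median and cannot speak to it. The spread test was tried with many genes changed, because with few it cannot pass at 10 arrays a group. The 10 genes, the gene lists and the tests were chosen with earlier results of these data known. Named list genes are those that passed against controls with the smallest p, at most 4 per list and comparison, unless stated. No relation or likeness was computed for Hspa1b or Hsp90ab1. Alternatives are given in the closing section.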

Additional observations from a re-analysis of the deposited data

Results flagged for a closer look

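Hspb1 in control 1 had a signal of 7.07, apart from the other 9 controls, of which the nearest had 7.73. The gap was 0.55 of the whole range of the 10 controls, above Dixon's 95% critical value of 0.466. This was the only sample singled out among 24 combinations of gene and group, of which chance singles out about 1 in 20.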

How the results depend on the processing

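Counts of chaperones called against controls moved by more than 1.5 times with the arrays used and with array weights. Array weights gave 4 for GM501, 5 for SAGE and 5 for pair means, beside 43.7%, 49.1% and 59.7% of all genes. Pairs 1 to 6 gave 6, 6 and 7, beside 59.4%, 58.8% and 64.1%. Pairs 7 to 10 gave 0, 0 and 0, beside 1.32%, 0.813% and 0.73%. Pairs 7, 9 and 10, a choice made after seeing the data, also gave 0, 0 and 0, beside 0.415%, 0.686% and 0.221%. With clusters of several symbols, added likewise, pairs 1 to 6 and pairs 7 to 10 gave the same counts for GM501 and SAGE. No filter gave 5 for pair means, and 1 fit of all 30 arrays gave 1 for GM501, with Hsph1 at an adjusted p of 0.0531 by limma. Leaving out 1 array gave 1 to 3 for GM501 and 2 to 5 for SAGE, and leaving out a pair or control gave 2 to 5 for pair means. Centring turned the split of all genes called for pair means from 2560 higher and 2065 lower to 699 and 3046. Embryo of origin gave 3 with centred arrays beside 22.7% of all genes, 3 with array weights beside 37.1% and 1 without pair 8 beside 35.1%. It gave 1 with the upper 40% of genes and 2 with trend and robust. Spread in GM501 twins gave 0 in pairs 1 to 6, in pairs 7 to 10, in pairs 7, 9 and 10 and without pair 8. The shares of all genes there were 0.194%, 0.0111%, 0% and 0%. For the upper 40%, trend and robust, no filter, 1 fit of all arrays and single arrays or pairs left out, shares of all genes were not computed. The causes were not tested.

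The twins' and controls' shared numbers pair nothing by the labels. With the number as a replicate block, Hsph1 and Cryab stayed called in GM501 twins (limma adjusted p = 0.0495 and 0.0344) and in SAGE twins (0.0198 and 0.0267), and Hsp90aa1 lost its call in pair means (0.0551). Without the block in the comparison of media no chaperone was called.

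Signs turned as follows. GM501 minus SAGE: with array weights, Hspa8 -0.0042, Hsp90aa1 -0.0017 and Hsf2 -0.075; in pairs 1 to 6, Hsph1 -0.005, Hspa8 -0.018, Hsp90aa1 -0.13 and Hsf2 -0.022. Without pair 8 they were Hsph1 -0.051, Hspa8 -0.012, Hsp90aa1 -0.042 and Hsf2 -0.12, and in pairs 7, 9 and 10 Hsph1 -0.14, Cryab 0.25, Hspb1 0.017 and Hsf2 -0.32. Leaving out 1 pair ranged from -0.051 to 0.28 for Hsph1, -0.012 to 0.022 for Hspa8, -0.042 to 0.14 for Hsp90aa1 and -0.19 to 0.28 for Hsf2. GM501 minus controls: centred, Hspa1a -0.065 and Hspb1 -0.17; in pairs 7 to 10, Hspa1a -0.072, Hspa8 0.12, Hsp90aa1 0.089, Hspb1 -0.46 and Hsf2 0.13, as with clusters of several symbols; in pairs 7, 9 and 10, Hspa1a -0.073, Hspa8 0.11, Hsp90aa1 0.12, Hspb1 -0.30 and Hsf2 0.0087. Hspb1 ranged from -0.084 to 0.12 with 1 array left out. SAGE minus controls: in pairs 7 to 10, Hspa8 0.072 and Hspb1 -0.21, as with clusters of several symbols; in pairs 7, 9 and 10, Hsph1 0.006, Hspa8 0.11, Dnajb1 0.079, Hspb1 -0.31, Bag3 0.032 and Hsf2 0.33; Bag3 ranged from -0.095 to 0.0053 with 1 array left out. Pair means minus controls: in pairs 7, 9 and 10, Hsp90aa1 0.052, Dnajb1 0.011 and Hspa1a -0.013. The spread of Hsph1 minus that of controls was -0.013 for GM501 in pairs 7 to 10 and -0.0067 for SAGE in pairs 7, 9 and 10. Hspa1a with Hsph1 had a rho of -0.16 in controls and, in co-twin differences, 0.24 centred and a rho of 0.0304. Cryab in co-twin differences had an r of -0.00069 with Hspb1 and 0.0425 with Hsph1 when centred, and a rho of 0.091 with Hsph1. Of the other values for single genes, 960 kept direction and side of the threshold, 63 passed where they had not and 49 lost a call. Relations with Hspa1b and Hsp90ab1, and likeness for Hspa1b, could not be run.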
